A study of Mus musculus with 219 samples.

Results

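Potassium channel genes were taken as the protein-coding mouse genes of the GENCODE vM21 annotation whose symbol starts with Kcn, kept where the mean raw count was 10 or more in a table of prefrontal cortex libraries collected around the day. Of 93 such genes considered, 74 passed this minimum and 19 did not, among 55487 gene identifiers in each count table. Just inside the minimum lay Kcne4, with a mean count of 11.5, and Kcne2, with 14.1, and just outside it lay Kcnk5, with 9.82, and Kcnmb1, with 8.86. All 74 also passed the filter on low counts in both tables and were tested in every comparison.

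The libraries were made from total RNA of the left prefrontal cortex of male and female mice, after removal of ribosomal RNA. The daily atlas held 92 libraries of WT/WT mice (Snord116+/+Ctg-/-) aged about 12 weeks and kept in 12 h of light and 12 h of darkness (12:12). They were collected at zeitgeber time (ZT, hours after lights on) 0, 3, 6, 9, 12, 15, 18 and 21, with 6 mice per sex and time and 5 at ZT18 and ZT21. A second table held 126 libraries, all collected at ZT6, from mice of both sexes and 4 genotypes. Beside WT/WT these were HET/WT mice, written Snord116+/-Ctg-/-, then WT/TG mice, written Snord116+/+Ctg+/-, and finally HET/TG mice, which carry both changes and are written Snord116+/-Ctg+/-. These mice entered light-controlled incubators at about 8 weeks of age, acclimated for 7 days, and were kept at 22 °C in 12:12 or in 11 h of light and 11 h of darkness (11:11) for 22 days. In the calorimetry set the mice then moved to metabolic chambers and were collected in constant darkness. In the running wheel set they had wheels for the last 7 of the 22 days and were collected in the light:dark cycle. Of the 32 groups of set, sex, light cycle and genotype at ZT6, 30 held 4 mice and 2 held 3, namely WT/TG calorimetry males in 11:11 and WT/TG running wheel males in 12:12. The labels do not say what the Ctg allele is, which promoter drives it or which parent passed on the Snord116 deletion.

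Potassium channels let potassium leave the cell and so set the resting potential, shape and end the action potential, and limit repetitive firing. Voltage-gated channels assemble from 4 pore subunits of the Kcna, Kcnb, Kcnc, Kcnd, Kcnh or Kcnq families, some together with silent subunits (Kcnf, Kcng, Kcns, Kcnv) that carry no current alone, and with auxiliary subunits (Kcnab, Kcnip, Kcne). Inward rectifiers (Kcnj) and leak channels (Kcnk) hold the membrane near rest, and Kcnma1, Kcnn and Kcnt channels open when calcium or sodium rises inside the cell. In neurons of the brain's central clock, daily changes of potassium currents are known to lower firing at night.

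Depth ran from about 12995500 to 18420300 counts per library in the atlas and from 12737700 to 29856500 at ZT6. Potassium channel genes took a median of 0.58% to 0.714% of the counts of a set and sex. They took least in 2 libraries: WT/TG replicate 1 of running wheel females in 11:11, with 0.281%, and HET/TG replicate 4 of calorimetry males in 11:11, with 0.372%. Slc17a7, the vesicular glutamate transporter of cortical excitatory neurons, ran from 569.8 to 1359 CPM (counts scaled to library size) over all libraries, so that the defining marker of cortical tissue was present throughout. HET/WT replicate 3 of running wheel females in 11:11 had 167.3 CPM of Snhg14, the host transcript of Snord116, against 20.8 to 54.3 CPM in the other HET/WT libraries and 115.9 to 280.6 CPM in WT/WT and WT/TG libraries. This library, labelled HET/WT, goes against its label. The counts of genotype calls are given with and without it, and the values of single genes with it.

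The slope of each library's log2 deviation on gene length, a value that RNA quality and library preparation can move, averaged -0.447 ± 0.113 (SD, n = 31, -0.616 to -0.181) in calorimetry males and did not overlap that of the other sets and sexes at ZT6. It averaged 0.0326 (n = 32) in calorimetry females, 0.336 (n = 32) in running wheel females and 0.0666 (n = 31) in running wheel males. Within calorimetry females it ran from 0.0125 to 0.214 in 11:11 and from -0.152 to 0.0498 in 12:12. Calorimetry males ran from -0.616 to -0.181 in 11:11 and from -0.605 to -0.418 in 12:12. In the calorimetry set the slope and the light cycle thus cannot be fully told apart. Striatal neuron markers (10 genes) summed to a median of 849 CPM (210.3 to 2168) in atlas females and 254 CPM (199.2 to 738) in atlas males. In bulk tissue fewer cells of a type and less RNA per cell cannot be told apart.

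The promoters of the channel genes were searched for letters bound by clock and stress factors, and the windows holding an E-box are shown because E-boxes are where the core clock activators bind. RefSeq windows that start 250 bases before the start site and run a little past it were found for 53 of the 74 genes (GRCm38.p6). The E-box letters CACGTG (capitals below, 5′ to 3′ on the gene's strand) occurred in 4 of the 53, or 7.55%, against 8.09% of all genes with a window.
Kcnab1, chr3:65108840-65108869, plus strand, 162 bases before a start: cagaagagcattCACGTGttaatcagtagt
Kcnab1, chr3:65188046-65188075, plus strand, 45 bases before another start: tatcttacaaagCACGTGcctctagttttg
Kcne4, chr1:78816845-78816874, plus strand, 54 bases before the start: ttcctcccggaaCACGTGacgatgcatttc
Kcnh4, chr11:100759848-100759877, minus strand, 87 bases before the start: ccggtgcggagcCACGTGgtgggcgcgggc
Kcnj2, chr11:111066068-111066097, plus strand, 84 bases before the start: gggaagcgcagcCACGTGcgctccgattgg
These letters were searched on both strands. Of the other motifs, the D-box TTANGTAA (2.72% of all genes), the CRE TGACGTCA (2.03%) and the RORE (0.714%) were in no window of the 53 genes. The central ACGT of the CRE also stands in the E-box. The heat shock element (0.662%) was in Kcnj6 and the glucocorticoid response element (0.537%) in Kcna5. A match describes the letters only, and no match says only that these letters are not in the window.

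The 250 bases upstream of Kcnj2 and Kcnip4 are shown in full, the first with its E-box in capitals and the second because Kcnip4 was called both across the day and between light cycles without holding any of the 6 motifs.
Kcnj2, chr11:111065914-111066163, plus strand: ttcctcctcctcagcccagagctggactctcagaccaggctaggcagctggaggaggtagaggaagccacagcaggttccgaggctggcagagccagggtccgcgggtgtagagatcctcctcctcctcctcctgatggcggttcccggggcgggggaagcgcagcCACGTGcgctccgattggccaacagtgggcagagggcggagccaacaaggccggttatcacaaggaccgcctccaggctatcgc
Kcnip4, chr5:49285660-49285909, minus strand: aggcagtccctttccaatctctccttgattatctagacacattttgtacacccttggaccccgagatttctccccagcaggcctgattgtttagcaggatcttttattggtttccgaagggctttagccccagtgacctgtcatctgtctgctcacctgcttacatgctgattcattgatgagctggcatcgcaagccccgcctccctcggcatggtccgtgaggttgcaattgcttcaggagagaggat
The first was 65.6% G and C and the second 51.2%.

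In FPKM, that is CPM per kilobase of exon, the highest potassium channel gene in atlas cortex was Kcnab2, the beta subunit of the Kcna channels, at 69.3 ± 6.78 (SD, n = 92). It was followed by Kcnj4, an inward rectifier of forebrain neurons, at 46.4 ± 5.55. Kcna2 (36.6 ± 4.32) and Kcna1 (34.4 ± 3.98), which form low-threshold axonal channels, were also among the highest. The spreads of Kcna2, Kcna1 and Kcnj10 overlap, as do those of the genes that follow. The 14 highest genes, down to Kcnv1, held 49.3% of the summed FPKM of all 74.

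**Figure D1:**
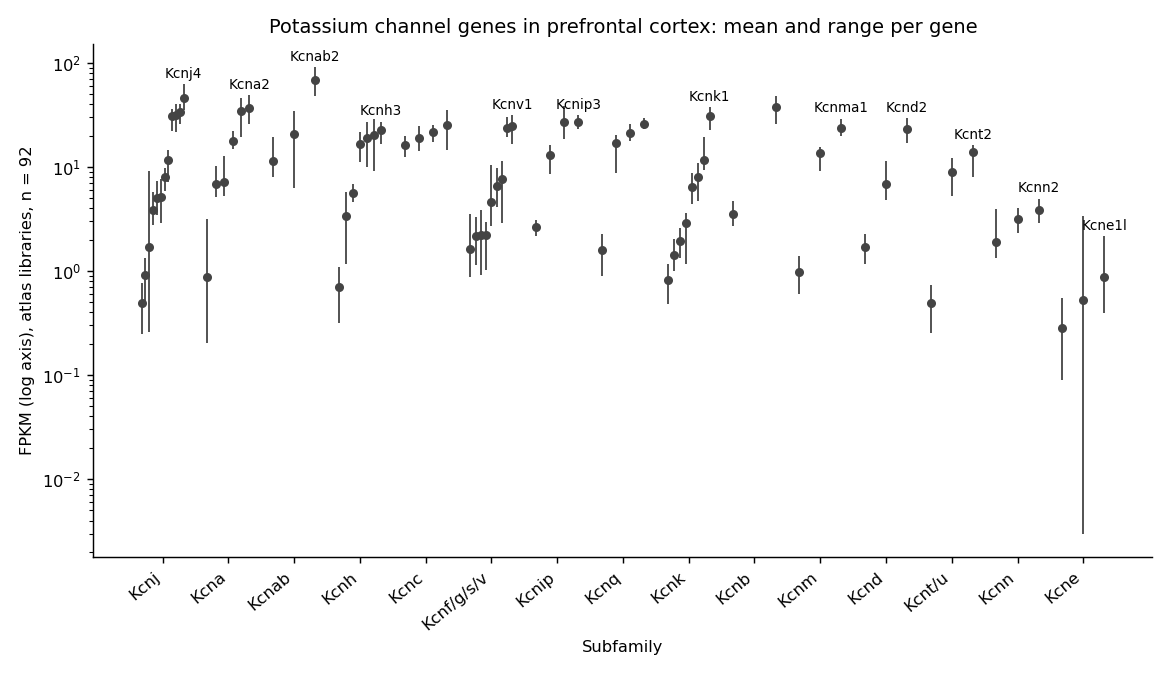
FPKM (log axis) of the 74 potassium channel genes over the 92 atlas libraries, grouped by subfamily, with each gene's mean as a point and a line from its lowest to its highest library. Kcnab2 stands highest at 69.3, Kcne genes lie lowest, and the lowest value of Kcne2, which is 0, is drawn at 0.003.

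By role, the 12 Kcnj genes held the largest share of summed FPKM, 18.4%. Within them the G-protein-gated subunits Kcnj3 (31.5), Kcnj9 (30.99) and Kcnj6 (7.98) were unequal, and glial Kcnj10 (33.5) lay above its partner Kcnj16 (4.99). The strong rectifiers Kcnj2 (5.12), Kcnj12 (3.88) and Kcnj14 (0.497) lay far under Kcnj4, and of the ATP-sensitive pores Kcnj11 had 11.7 FPKM and vascular Kcnj8 0.913. Of Kcnj3, 31.1% of the exon bases are shared with Gm26794. Kcnj13, an epithelial rectifier, averaged 1.71 but shares 49.1% of its exon bases with Gigyf2 on the opposite strand.

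Among voltage-gated pores the Kcna genes took 10.6%, Kcnh 9.07% and Kcnd 3.28%. Kcna6 (17.7, with 39.6% of its exon bases shared with antisense Gm26673), Kcna4 (7.19), Kcna3 (6.89) and Kcna5 (0.875) completed the first family. Kcnc1 (21.4), Kcnc4 (19.1) and Kcnc2 (16.4), of a family known from fast-spiking cells, lay close together. Kcnd2, the dendritic A-type pore, had 23.3 FPKM, Kcnd3 6.93 and Kcnd1 1.69. Kcnq3 and Kcnq5, pores of the M-current that limits repetitive firing, had 21.3 and 16.9 FPKM. In the Kcnh family Kcnh3, Kcnh5, Kcnh7 and Kcnh1 ran from 22.7 down to 16.8, and Kcnh2, Kcnh4 and Kcnh6 from 5.66 down to 0.694. Kcnb2 had 3.52 FPKM.

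The silent subunits held 7.71%, led by Kcnv1 (24.5) and Kcnf1 (23.5), with Kcns1, Kcns2, Kcng1, Kcns3, Kcng4, Kcng3 and Kcng2 from 7.63 down to 1.64. Auxiliary Kcnab genes held 10.4%, with Kcnab3 at 20.9 and Kcnab1 at 11.5. The Kcnip genes, calcium sensors that bind Kcnd channels, held 7.11%: Kcnip3 had 26.99 FPKM, Kcnip2 26.8, Kcnip4 12.9 and Kcnip1 2.64. The 3 Kcne genes together held 0.17%.

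Leak channels held 6.61%. Kcnk1 (31.2) was highest, then mechanosensitive Kcnk2 (11.8), Kcnk12 (8.01) and acid-sensitive Kcnk3 (6.46), and Kcnk4, Kcnk13, Kcnk10 and Kcnk6 lay between 2.86 and 0.813. Of the channels opened by calcium or sodium, Kcnma1, the large-conductance pore, had 23.8 FPKM, with its beta subunits Kcnmb4 at 13.6 and Kcnmb2 at 0.987. Sodium-activated Kcnt2 had 13.8 and Kcnt1 8.996, and the small-conductance genes Kcnn2, Kcnn1 and Kcnn3 had 3.86, 3.16 and 1.89. Kcnu1, a relative of Kcnma1 gated by voltage and alkaline pH and counted here beside the Kcnt genes, had 0.493.

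Across the day, 44 of the 74 genes (59.5%) followed a 24 h cosine curve at an adjusted p under 0.05, against 41.4% of all genes tested. Adjusted p here and below is the Benjamini-Hochberg value over all genes of edgeR's quasi-likelihood test. Changes were small: the fitted peak-to-trough fold of the 44 ran from 1.06 to 3.80 with a median of 1.16, and 29 were under 1.2-fold. The median fitted log2 difference from trough to peak over all 74 genes was 0.16, beside 0.14 over all genes. Of the 44, 23 peaked from ZT12 to ZT18, in the first part of the night, 8 from ZT18 to ZT24, 6 from ZT0 to ZT6 and 7 from ZT6 to ZT12. These counts by window have no share over all genes beside them and are not read as a trait of the channel genes.

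By role, called were 5 of 6 Kcna, 6 of 7 Kcnh and 2 of 3 Kcnd genes, 6 of 9 silent subunits, 3 of 4 Kcnip, 1 of 3 Kcnab and 2 of 3 Kcne genes. Of the others, 6 of 12 Kcnj, 3 of 8 Kcnk, 3 of 3 Kcnn, 1 of 3 Kcnm and 1 of 3 Kcnt and Kcnu genes were called.

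Kcnh4, a voltage-gated pore of the ether-a-go-go-like group, had the largest fitted change of the called genes after Kcne2. It had 4.66 to 15.9 CPM (median 10.3) at ZT3 and 11.7 to 22.7 CPM (median 16.8) at ZT12. The ranges overlapped, but the median at ZT12 lay above every ZT3 library. The fitted log2 difference from trough to peak was 0.60 ± 0.09 (SE), a 1.51-fold change peaking at ZT11.8 ± 1.14 h (95% interval), with an adjusted p of 3.75e-07. Kcnh5, of the ether-a-go-go group, peaked at ZT13.4, with 36.9 to 91.9 CPM (median 68.5) at ZT3 and 55.9 to 114 CPM (median 92.3) at ZT12 (log2 0.32 ± 0.07, adjusted p = 0.00104). In females alone Kcnh5 was not called (log2 0.23, adjusted p = 0.233).

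The silent subunits peaked at different times. Kcng1 had 15.4 to 46.7 CPM (median 23.5) at ZT0 and 12.8 to 24.2 CPM (median 15.8) at ZT12, with overlapping ranges, and a fitted peak at ZT22.5 (log2 0.53 ± 0.08, 1.45-fold, adjusted p = 7.63e-07). Kcns2 had 37.4 to 54.01 CPM (median 43.6) at ZT6 and 22.8 to 33.4 CPM (median 30.4) at ZT15. For Kcns2 no library of ZT6 reached down to those of ZT15. Its curve peaked at ZT4.96 (log2 0.41 ± 0.06, 1.33-fold, adjusted p = 5.34e-08). Kcnv1 and Kcnf1, the 2 highest silent subunits, peaked at ZT17.01 and ZT19.02. Kcng2 was called at ZT1.42 (log2 0.34 ± 0.11, adjusted p = 0.0325) but not in females alone or without replicate 1, 2 or 6. It was also not called with choroid plexus markers in the model (log2 0.21, adjusted p = 0.235) or without the filter on low counts (0.0674). With time as a factor in place of the cosine it was not called either (0.241).

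**Figure D2:**
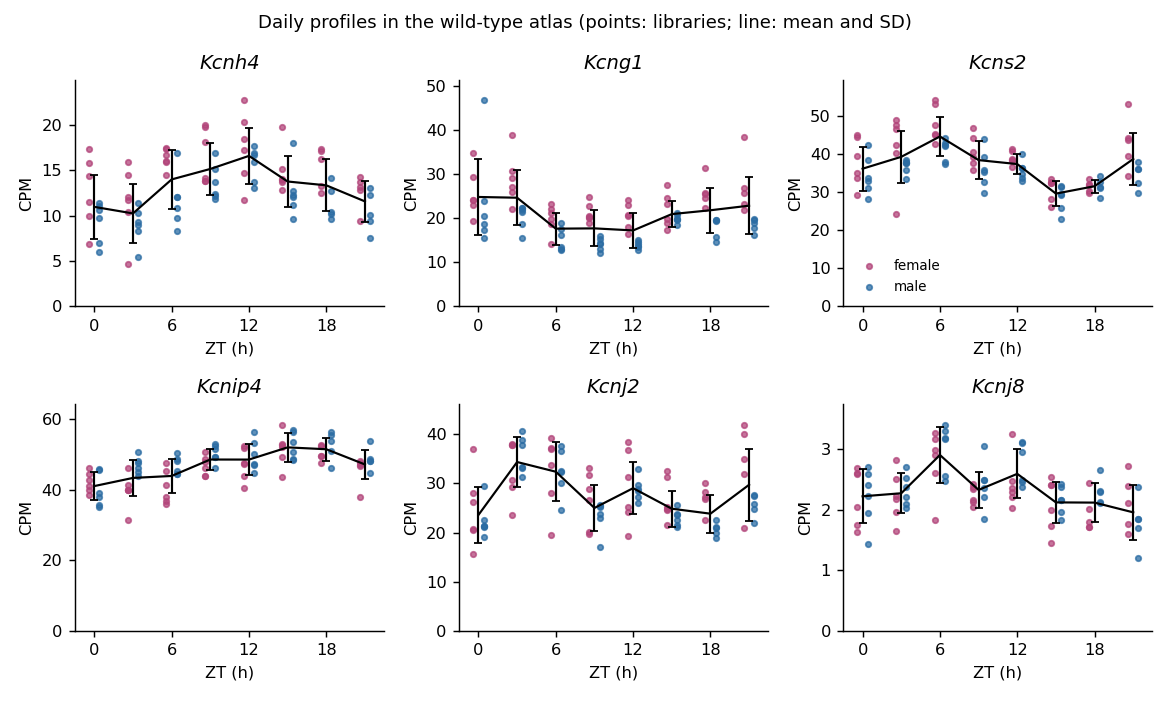
CPM of Kcnh4, Kcng1, Kcns2, Kcnip4, Kcnj2 and Kcnj8 by zeitgeber time in the atlas, with each library as a point coloured by sex and the mean ± SD of 12 libraries (10 at ZT18 and ZT21) as a line. Kcns2 stands highest near ZT6 and Kcnip4 near ZT15, and the scatter of single libraries is wide beside the daily change.

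Of the M-current pores, Kcnq5 peaked at ZT13.3, and Kcnq3 was not called (adjusted p = 0.21). Kcnip4 is described here after its values were seen, as are the other genes outside the 10 largest folds.

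Of the Kcna pores, Kcna6, Kcna2, Kcna1 and Kcna3, peaked in the night, from ZT12.8 to ZT20.04, while A-type Kcna4 peaked at ZT2.4. The folds of these 5 ran from 1.07 (Kcna6) to 1.24 (Kcna4). Kcnc1 peaked at ZT12.5 (1.09-fold). Of the A-type Kcnd pores, Kcnd1 peaked by day at ZT9.45 and Kcnd3 at ZT22.7, and Kcnd2, the most abundant, was not called (log2 0.03 ± 0.04, adjusted p = 0.788).

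The Kcnd partners Kcnip4 and Kcnip2 peaked in different parts of the day. Kcnip4 had 35.2 to 46.2 CPM (median 40.4) at ZT0 and 43.7 to 58.5 CPM (median 52.5) at ZT15, with little overlap (log2 0.30 ± 0.04, peak ZT14.6 ± 0.954 h, adjusted p = 1.2e-09). Kcnip2 had 80.1 to 115 CPM (median 101) at ZT3 and 64.4 to 104 CPM (median 84.1) at ZT15, with wide overlap (log2 0.24 ± 0.05, peak ZT1.44 ± 1.6 h, adjusted p = 0.000222). Kcnip4 shares 4.63% of its exon bases with 5730480H06Rik on the opposite strand, and no source used here says whether counting used strand. The beta subunit Kcnab3 peaked at ZT13.3 (log2 0.34 ± 0.09, adjusted p = 0.00784), and was not called in females alone (adjusted p = 0.0987), in males alone (0.173) or without replicate 6.

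Among inward rectifiers, Kcnj2 had 23.6 to 40.6 CPM (median 35.6) at ZT3 and 15.7 to 36.9 CPM (median 21.4) at ZT0, with overlapping ranges. Its curve peaked at ZT4.79 (log2 0.34 ± 0.09, adjusted p = 0.00557). This call was seen in males alone (log2 0.53, adjusted p = 0.000594) and not in females alone (log2 0.16, adjusted p = 0.673) or without replicate 2 or 4, though the test of a difference between the sexes' curves did not call it. Kcnj8, the pore of vascular ATP-sensitive channels, was low, with 1.83 to 3.41 CPM (median 3.08) at ZT6 and 1.2 to 2.73 CPM (median 1.85) at ZT21 (log2 0.40 ± 0.08, peak ZT7.61, adjusted p = 0.00013), and was not called in females alone (adjusted p = 0.0936). Kcnj4 and Kcnj11 also peaked by day, at ZT8.56 and ZT11.3, and the G-protein-gated Kcnj3 and Kcnj9 early in the night, at ZT12.03 and ZT13.7. Glial Kcnj10 (adjusted p = 0.515) and Kcnj16 (0.983) were not called.

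**Figure D3:**
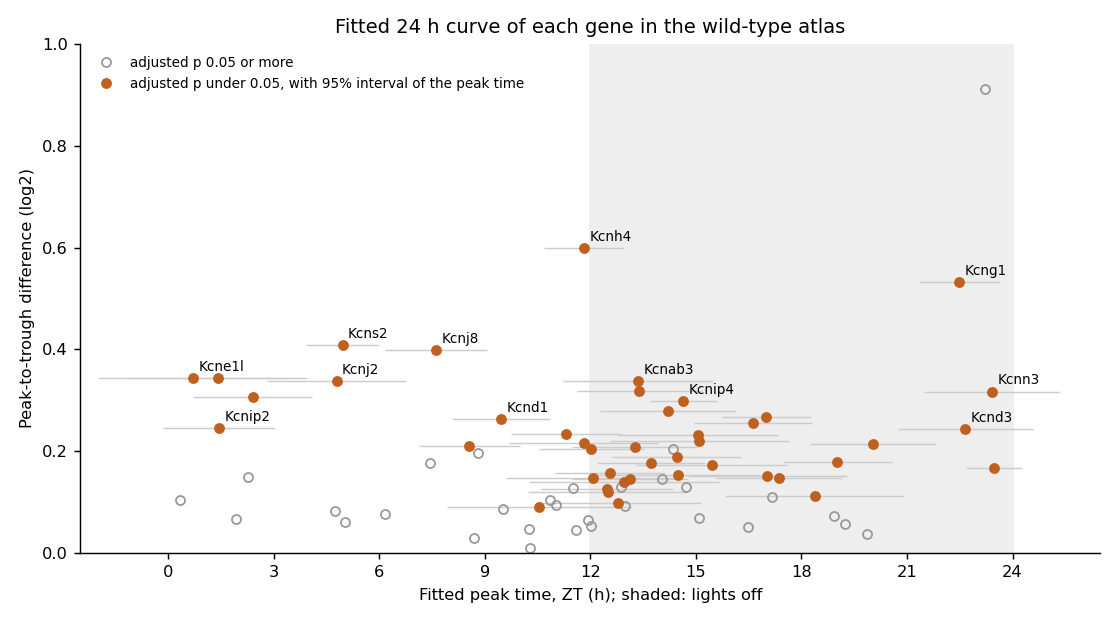
Fitted peak time (ZT, h) against peak-to-trough log2 difference for the potassium channel genes except Kcne2, with filled points and 95% intervals for called genes, open points for the rest, and the dark phase shaded. Most called genes lie under 0.3 on the log2 scale. Of the 44, 23 peak from ZT12 to ZT18, a count with no share over all genes beside it.

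Of the leak and ion-activated channels, Kcnk1, Kcnk12 and Kcnk4 peaked from ZT15.1 to ZT17.4, Kcnt2 at ZT14.4 and Kcnma1 at ZT13.1. The 3 small-conductance genes peaked at ZT12.9 (Kcnn1), ZT18.4 (Kcnn2) and ZT23.4 (Kcnn3). Their folds ran from 1.08 to 1.25.

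Kcne2, a single-span subunit abundant in choroid plexus, gave the largest fitted fold, 3.8 (log2 1.92 ± 0.66, adjusted p = 0.0439), from a level near 0. It was at 0 in 73 of the 218 libraries of both tables, none of which had more than 30.2 CPM of Ttr, the transthyretin made by choroid plexus. Of the 20 libraries highest in Ttr, 18 were among the 20 highest in Kcne2 and 17 among the 20 highest in Kcnj13. The summed choroid plexus markers (3 genes) had medians of 50.4 CPM (3.90 to 927) at ZT0 and 54.7 (3.72 to 724) at ZT3. At the other times the medians were 5.18 to 9.53, and the highest library ran from 149 at ZT12 to 873 at ZT15. With these markers in the model the log2 difference of Kcne2 was 0.040 (adjusted p = 0.992). The epithelial Kcnj13, named after its values were seen, had a fitted log2 difference of 0.91 ± 0.40 and was not called (adjusted p = 0.146). Kcne2 was also lost without replicate 1, 2 or 6, with DESeq2 (adjusted p = 0.117) and without the filter on low counts (0.0782). The same held with time as a factor (0.0664) and in each sex alone. Kcne1l, an X-linked single-span subunit, had 0.34 ± 0.12 (adjusted p = 0.0468) and was not called without replicates 1, 3, 4, 5 or 6 in turn. Nor was it called without the filter on low counts (0.0841), with time as a factor (0.14) or in either sex alone.

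Fitted alone, 15 of the genes were called in females and 29 in males, and 11 in both, among them Kcng1, Kcnh4, Kcnip4, Kcns2 and Kcnv1. These 11 were also called with the sexes together. The test of whether the sexes' curves differ called none of the 74 (4 at an unadjusted p under 0.05), against 0.0756% of all genes. Leaving out 1 replicate number at a time gave 30 to 43 calls, the lowest below the full count by under 1.5-fold.

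Between the light cycles at ZT6, a comparison of mice entrained to a 22 h day with mice in a 24 h day, 7 of the 74 genes (9.46%) changed, against 12.6% of all genes (7.49% higher and 5.15% lower). Kcnip4 was higher in 11:11, and Kcns2, Kcnip2, Kcnj8, Kcnk2, Kcnj4 and Kcnt1 were lower. The median log2 difference (11:11 minus 12:12) was 0.014 over the 74 genes and -0.0010 over all genes. Without replicate 1, 3 or 4 the count was 3, 4 and 3, and with the length slope in the model 3. DESeq2 called 8, 2 higher and 6 lower. With striatal markers in the model Kcnk2 (-0.059, adjusted p = 0.0737), Kcnj4 (-0.073, 0.129) and Kcnj8 (-0.17, 0.0552) were not called. Kcnj8 and Kcnj4 were each called under 7 of 13 alternatives. Kcnip4 (0.17 ± 0.03, SE, adjusted p = 3.28e-05) and Kcns2 (-0.18 ± 0.03, adjusted p = 0.000141) were called under all 13 alternatives.

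In the calorimetry set 10 of the 74 genes (13.5%) changed, 4 higher and 6 lower, against 19.6% of all genes (10.4% higher and 9.13% lower). In the running wheel set none did (10 at an unadjusted p under 0.05, and none with DESeq2), against 0.069% of all genes. The calorimetry count was 6 without replicate 4, 6 with the length slope in the model and 16 without the 2 libraries of smallest potassium channel share.

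Kcnip4 was higher in 11:11 in both sexes of the calorimetry set. Females had 49.95 to 64.1 CPM (median 56.6) in 11:11 and 40.6 to 58.7 CPM (median 49.96) in 12:12. Males had 35.5 to 70.6 CPM (median 46.9) and 33.5 to 56.01 CPM (median 41.5). The ranges overlapped in both sexes. The log2 difference was 0.19 ± 0.04 (adjusted p = 0.000364) and was 0.082 (adjusted p = 0.238) with the length slope in the model. In the running wheel set it was 0.14 ± 0.04 (adjusted p = 0.253), and the difference between the sets was not called (adjusted p = 0.707).

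Kcns2 was lower in 11:11. Calorimetry females had 28.7 to 45.6 CPM (median 33.2) in 11:11 and 33.3 to 45.8 CPM (median 40.9) in 12:12. Calorimetry males had 18.9 to 32.3 CPM (median 26.2) and 19.2 to 38.95 CPM (median 30.2). The 11:11 medians were the lower in both sexes and the ranges overlapped. The log2 difference was -0.26 ± 0.05 (adjusted p = 3.15e-05) in calorimetry and -0.09 ± 0.05 (adjusted p = 0.698) in running wheel mice.

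**Figure D4:**
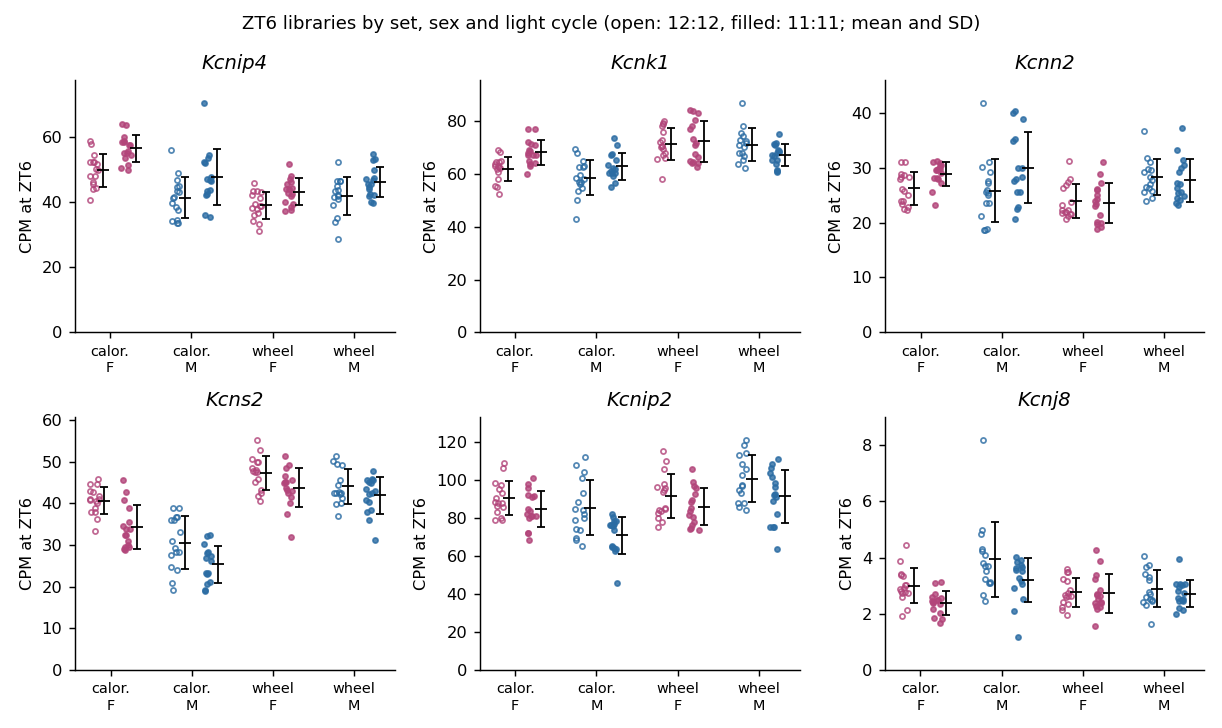
CPM at ZT6 of Kcnip4, Kcnk1, Kcnn2, Kcns2, Kcnip2 and Kcnj8 by set and sex, with open points for libraries in 12:12, filled points for libraries in 11:11 and bars for the mean ± SD. Kcnip4 sits higher and Kcns2 lower in 11:11 in both sexes of the calorimetry set, with overlapping points.

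The other 3 genes higher in 11:11 in calorimetry were Kcnn2, a small-conductance calcium-activated pore (0.18 ± 0.05, adjusted p = 0.00963), and the leak channels Kcnk3 (0.14 ± 0.04, adjusted p = 0.0131) and Kcnk1 (0.13 ± 0.03, adjusted p = 0.00125). Kcnn2 was not called without replicate 1 or 4, Kcnk3 without replicate 1 or 3 and Kcnk1 without replicate 2. With the length slope in the model Kcnn2 (0.14, adjusted p = 0.114) and Kcnk3 (0.12, 0.112) were not called, and Kcnk1 was (0.16, 0.000562). Kcnk3 shares 5.76% of its exon bases with Gm9899 and Kcnk1 8.01% with Gm45875, both on the opposite strand.

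Of the lower genes, Kcnj8 had the largest log2 difference, -0.29 ± 0.08 (adjusted p = 0.00613). Calorimetry females had 1.65 to 3.13 CPM (median 2.43) of Kcnj8 in 11:11 and 1.92 to 4.46 CPM (median 2.9) in 12:12. Its ranges overlapped. The leak channel Kcnk2, which shares 12.2% of its exon bases with antisense A430027H14Rik, gave -0.19 ± 0.05 (adjusted p = 0.00634). Kcnip2 gave -0.18 ± 0.05 (adjusted p = 0.00503) and Kcnt2 -0.16 ± 0.05 (adjusted p = 0.00942). Kcnj4, the most abundant inward rectifier, gave -0.16 ± 0.05 (adjusted p = 0.00877). Kcnj8, Kcnk2 and Kcnip2 were not called without replicate 4, and Kcnt2 not without replicate 2 or 3. With the length slope in the model Kcnj8 (-0.16, adjusted p = 0.27), Kcnk2 (-0.12, 0.227), Kcnip2 (-0.10, 0.231) and Kcnj4 (-0.097, 0.241) were not called.

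A test of whether the light cycle difference itself differed between the sets called 2 genes (2.7%), against 5.32% of all genes, 1 with a higher difference in calorimetry and 1 with a lower (DESeq2 called 3, 2 higher and 1 lower). Kcnk1 had 55.03 to 73.7 CPM (median 61.9) in 11:11 and 43.03 to 69.5 CPM (median 58.2) in 12:12 in calorimetry males, and 60.8 to 75.3 CPM (median 67.7) and 62.2 to 87.02 CPM (median 71.1) in running wheel males. Calorimetry females had 59.9 to 77.03 CPM (median 67.7) in 11:11 and 52.3 to 68.97 CPM (median 62.9) in 12:12, and running wheel females 62.8 to 84.2 CPM (median 71.3) and 57.9 to 79.97 CPM (median 70.7). The calorimetry difference exceeded that in running wheel mice by 0.16 ± 0.04 (log2, adjusted p = 0.0139). For Kcnd1 calorimetry females had 6.51 to 11.9 CPM (median 8.69) in 11:11 and 8.35 to 10.4 CPM (median 9.24) in 12:12, and running wheel females 10.4 to 13.6 CPM (median 11.9) and 7.87 to 12.4 CPM (median 10.7). Its difference was -0.10 in calorimetry and 0.14 in running wheel mice, neither called alone, and -0.25 ± 0.07 between them (adjusted p = 0.0179). Kcnk1 was not called without replicate 2 or 4, and Kcnd1 not without replicate 1, 2 or 3 or without the filter on low counts (adjusted p = 0.0572). Without replicate 2 both were thus lost, and the 1 gene then called was Kcnn2 (0.27, adjusted p = 0.0394).

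Within calorimetry females 11 genes changed, 10 higher and 1 lower (12.3% of all genes were called). Within calorimetry males 13 changed, 6 higher and 7 lower (13.5%). For both sexes the shares of all genes are not split by direction, and the directions are not read as a trait of the channel genes. Kcnip4, higher, and Kcns2, lower, were the 2 genes called in both, which is 18.2% of the females' calls and 15.4% of the males'. Over all genes the calls shared were 29.5% and 26.8%, and 93.9% of those went the same way. The females' higher calls included Kcnj6, Kcnd3, Kcna1, Kcnf1, Kcnk1 and Kcnj9. The males' other calls were Kcnj10, Kcnj16, Kcnk3, Kcne4 and Kcnn2, higher, and Kcnh1, Kcnj4, Kcnip2, Kcnh5, Kcnt1 and Kcnk2, lower. Females had 2 to 8 calls and males 6 to 11 with 1 replicate number left out: 6, 2 and 5 in females without replicate 1, 2 and 4, and 6 and 7 in males without replicate 3 and 4. With the length slope in the model, 2 genes were called in females and 17 in males, of which 3 were higher and 14 lower. DESeq2 called 18 in males, 5 higher and 13 lower.

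The light cycle difference itself differed between calorimetry males and females for 8 genes (10.8%), against 3.91% of all genes (2.28% higher and 1.63% lower in males), a test added after the data had been seen. The median of this difference (males minus females) was -0.12 over the 74 genes and 0.0022 over all genes. Kcnj6, a G-protein-gated rectifier, was called under all 13 alternatives. Females had 64.1 to 82.97 CPM (median 73.7) of Kcnj6 in 11:11 and 54.4 to 73.6 CPM (median 64.03) in 12:12, and males 49.9 to 75.5 CPM (median 66.6) and 62.95 to 84.7 CPM (median 72.2). The 11:11 median was the higher in females and the lower in males, with overlapping ranges. The log2 differences were 0.22 ± 0.05 (adjusted p = 0.000597) and -0.13 ± 0.05 (0.068), and -0.35 ± 0.07 between the sexes (adjusted p = 0.000862).

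Kcnj10, the glial rectifier that clears extracellular potassium, had a difference of the opposite sign. Females had 184 to 264 CPM (median 209.8) of it in 11:11 and 190.3 to 275 CPM (median 229.7) in 12:12, and males 161 to 279 CPM (median 245) and 134 to 305 CPM (median 181). The log2 difference was -0.07 ± 0.06 in females, 0.26 ± 0.06 in males (adjusted p = 0.00359) and 0.32 ± 0.09 between them (adjusted p = 0.0237). Astrocyte markers (6 genes) summed to medians of 882 and 977 CPM in females in 11:11 and 12:12 and of 1119 and 931 in males, and their part in the result was not tested. Of the other genes called, Kcna1 (-0.26), Kcnj9 (-0.27), Kcnt1 (-0.21), Kcnd3 (-0.28) and Kcng1 (-0.40) had lower differences in males. The count was 2, 2 and 1 without replicate 1, 2 and 4, 17 with DESeq2 and 15 with striatal markers in the model.

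The running wheel mice gave no light cycle call in females (12 genes at an unadjusted p under 0.05, against 0.276% of all genes called) or in males (3 genes, against 0%).

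Light cycle differences were set beside the peak times of the atlas, which come from other mice. Of the 44 genes with a daily curve, 8 (18.2%) were called between light cycles in calorimetry, against 31.1% of the 7105 curve-bearing genes of the whole table. The 3 called higher in 11:11 (Kcnip4, Kcnk1 and Kcnn2) all peaked from ZT12 to ZT24. Of the 5 called lower, Kcns2, Kcnip2, Kcnj8 and Kcnj4 peaked from ZT0 to ZT12, and Kcnt2 at ZT14.4. Over all genes 95.8% of 1370 higher genes and 5.11% of 841 lower genes peaked from ZT12 to ZT24.

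Between the sets, calorimetry minus running wheel, 55 of the 74 genes (74.3%) changed, 13 higher and 42 lower, against 62.2% of all genes (29.3% higher and 32.9% lower). The median log2 difference was -0.16 over the 74 genes and -0.016 over all genes. Lighting at collection, housing and handling differed between the sets and cannot be told apart. With the length slope in the model 28 genes were called, 12 higher and 16 lower, and the median was -0.028.

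By role, all 6 Kcna, all 3 Kcnd and 5 of 7 Kcnh genes were lower in calorimetry mice and none higher. Of the 9 silent subunits 6 were lower, led by Kcng1 (-0.56 ± 0.04, adjusted p = 3.42e-21) and Kcns2 (-0.46 ± 0.03, adjusted p = 1.06e-22), and 2 higher. Kcna5 was lower (log2 -0.50, adjusted p = 0.000283) but not with striatal markers in the model (-0.15, adjusted p = 0.145). Kcnn3, of the small-conductance genes, was lower (-0.37 ± 0.04), as was Kcna4 (-0.36 ± 0.05), which was not called with the length slope in the model.

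The difference between the sets itself differed between the sexes for 44 genes (59.5%, 14 higher in males and 30 lower). Of all genes 51.8% were called, a share not split by direction. Kcnt2, a sodium-activated pore, had 151 to 322 CPM (median 202) in calorimetry males and 74.01 to 122 CPM (median 101) in running wheel males. Calorimetry females had 95.7 to 172 CPM (median 117) of it and running wheel females 82.5 to 123 CPM (median 108). The males of the 2 sets did not overlap, and the females did. The log2 difference was 1.07 ± 0.05 in males (adjusted p = 4.43e-38) and 0.16 ± 0.05 in females (adjusted p = 0.00349), and 0.91 ± 0.07 between them (adjusted p = 3.55e-22).

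Kcnmb4, the neuronal beta subunit of Kcnma1, had 59.3 to 104 CPM (median 75.6) in calorimetry males and 36.6 to 59.1 CPM (median 46) in running wheel males. Females had 37.5 to 53.2 CPM (median 47.8) and 38.97 to 48.8 CPM (median 42.5). The lowest calorimetry male lay just above the highest running wheel male. The log2 difference was 0.71 ± 0.03 in males (adjusted p = 5.83e-40) and 0.13 ± 0.03 in females, while its pore Kcnma1 was lower in males (-0.32 ± 0.03). Kcnmb4 shares 20.8% and 10.7% of its exon bases with 2 antisense transcripts.

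**Figure D5:**
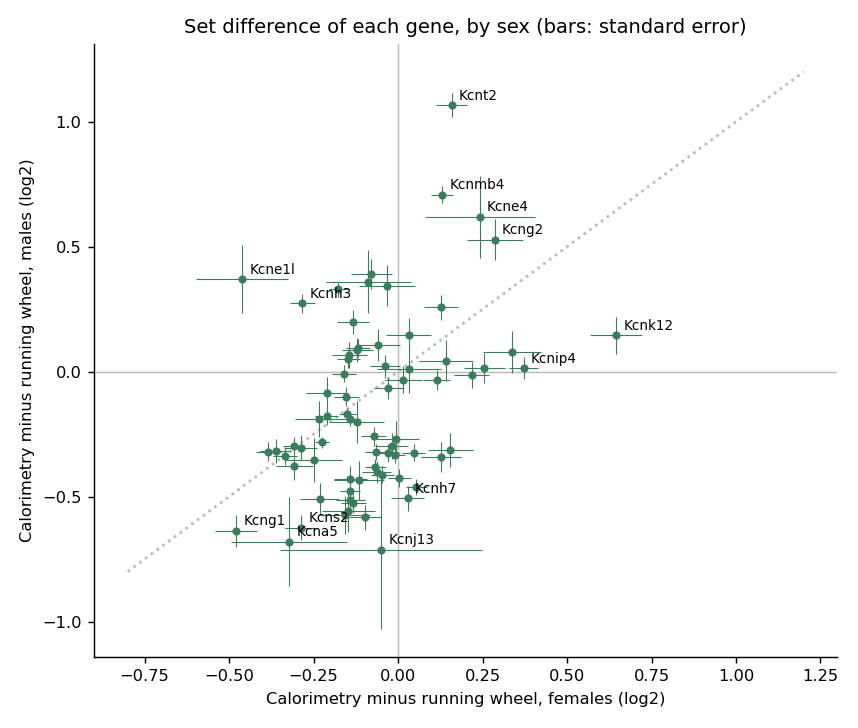
Log2 difference between calorimetry and running wheel libraries at ZT6 in males (y axis) against that in females (x axis) for the potassium channel genes except Kcne2, with bars for the SE. Kcnt2 stands apart at 1.07 in males and 0.16 in females.

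In females 41 genes differed between the sets, 11 higher and 30 lower (43.6% of all genes were called). In males 56 differed, 14 higher and 42 lower (65%). For both sexes the shares of all genes are not split by direction, and the directions are not read as a trait of the channel genes. Called in both were 30, which is 73.2% of the females' and 53.6% of the males' calls: 4 higher (Kcng2, Kcnj16, Kcnmb4 and Kcnt2), 20 lower, and 6 in opposite directions (Kcnab2, Kcnc4, Kcne1l, Kcnh3, Kcnj2 and Kcnn1). Over all genes the shared calls were 75.2% and 50.5%, with 26.2% of them in opposite directions, so the channel genes' counts are near those of all genes. Kcnab2 had 284 to 602 CPM (median 483) in calorimetry and 323 to 441 CPM (median 377) in running wheel males, and 335 to 436 CPM (median 383) and 375 to 501 CPM (median 431) in females. The medians were thus ordered oppositely in the 2 sexes (0.33 ± 0.03 in males, -0.18 ± 0.03 in females, difference 0.51 ± 0.04, adjusted p = 1.22e-20). Kcnk12, a silent or weakly active leak subunit, was higher in calorimetry females than in running wheel females (0.64 ± 0.08, adjusted p = 4.56e-12).

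Calorimetry males were also the group with the most negative length slope, and with the length slope in the model 18 genes differed between the sets in males and 35 in females. Oligodendrocyte markers (6 genes) summed to medians of 6293 and 5371 CPM in calorimetry males in 11:11 and 12:12 and of 3615 to 4043 in the other sets and sexes. Blood markers (3 genes) summed to 140.2 and 208 CPM there and 55.5 to 93.9 elsewhere. The part of these in the set and sex results was not tested beyond the length slope.

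Between the sexes at ZT6 (male minus female), 55 of the 74 genes (74.3%) changed, 15 higher and 40 lower in males, against 58.1% of all genes (27.6% higher and 30.5% lower). Lower in males were 5 of 6 Kcna, all 3 Kcnd, 5 of 7 Kcnh and 7 of 12 Kcnj genes. The largest falls were those of Kcnb2 (-0.38 ± 0.03), Kcnh7 (-0.35 ± 0.03), Kcna4 (-0.34 ± 0.05), Kcnj3 (-0.32 ± 0.03) and Kcnd2 (-0.31 ± 0.03), and the largest rises those of Kcnmb4 (0.42 ± 0.02), Kcnt2 (0.38 ± 0.03), Kcnk12 (0.32 ± 0.05), Kcnab3 (0.26 ± 0.06) and Kcne1l (0.26 ± 0.10). With the length slope in the model 9 genes were called, 5 higher and 4 lower. Kcnb2 (0.16, adjusted p = 0.205), Kcnh7 (0.17, 0.192), Kcnj3 (0.036, 0.835) and Kcne1l (-0.20, 0.696) had the other sign and were not called. The slopes of calorimetry males did not overlap those of the other sets and sexes. In this model slope and sex thus cannot be fully told apart. Kcna4 (-0.16, adjusted p = 0.56), Kcnd2 (-0.061, 0.64), Kcnk12 (0.22, 0.398) and Kcnab3 (0.18, 0.582) kept direction but were not called. Kcnmb4 (0.22, adjusted p = 0.0173) and Kcnt2 (0.44, 0.00124) were called. Within calorimetry 50 genes were called (63.1% of all genes) and within running wheel mice 31 (33.8%). Of the 22 in both, 1 was higher (Kcnmb4), 16 were lower and 5 went opposite ways. Over all genes 30.2% of the 4724 shared calls went opposite ways. The rises above are averages over the 2 sets. The sex difference in calorimetry minus that in running wheel mice was 0.91 ± 0.07 for Kcnt2 (adjusted p = 3.55e-22). It was 0.83 ± 0.19 for Kcne1l (0.000124) and -0.50 ± 0.11 for Kcnk12 (3.96e-05). Kcnmb4 also differed (0.58 ± 0.05, 3.74e-21), and Kcnab3 was not called (-0.26 ± 0.12, 0.0635). The falls of Kcnb2, Kcnh7, Kcna4, Kcnj3 and Kcnd2 were each larger in calorimetry.

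In the atlas 45 of the 74 genes (60.8%) differed between the sexes, 23 higher and 22 lower in males, against 41.1% of all genes (21% higher and 20.1% lower). Kcna5, a delayed rectifier, had 0.762 to 9.01 CPM (median 2.9) in females and 0.587 to 2.94 CPM (median 1.6) in males. The highest male library lay near the female median. Its log2 difference was -1.04 ± 0.13 (adjusted p = 1.04e-10), and -0.024 (adjusted p = 0.932) with striatal markers in the model. Kcnh4 changed from -0.33 ± 0.06 to 0.052 (adjusted p = 0.719) in that model. With these markers 13 of the 74 genes were called, 7 higher and 6 lower. Called under all 13 alternatives for the atlas were Kcng1 (-0.41 ± 0.06) and Kcng3 (-0.33 ± 0.05), lower in males. So were Kcnab3 (0.37 ± 0.07), Kcns1 (0.33 ± 0.05) and Kcnab2 (0.20 ± 0.02), higher in males. At ZT6, though, Kcnab2 was called in opposite directions between the sexes of the calorimetry and running wheel sets. Of the 33 genes called between the sexes in both tables, which is 60.0% of the calls at ZT6 and 73.3% of those in the atlas, 23 went the same way and 10 opposite ways. Over the 17128 genes tested in both, the shared calls were 45.7% and 67.5%, and 29.3% of them went opposite ways. Among the 10 opposite channel genes, Kcnmb4 (-0.07) and Kcne1l (-0.42) were lower in atlas males and higher in males at ZT6. Kcnb2 (0.16) and Kcnj3 (0.11) were higher in atlas males and lower in males at ZT6. The other opposite genes were Kcna2, Kcnc2, Kcnh5, Kcnip4, Kcnj9 and Kcnma1. Of the other largest rises and falls at ZT6, Kcnt2, Kcnk12, Kcnab3 and Kcna4 went the same way. Kcnh7 and Kcnd2 were not called in the atlas.

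No potassium channel gene was called between genotypes. For HET/WT against WT/WT 12 of the 74 had an unadjusted p under 0.05, for WT/TG 3 and for HET/TG 6, and DESeq2 called none, against 0.0425%, 0.0159% and 0.0478% of all genes called by edgeR. These 3 comparisons share the WT/WT libraries. Kcna2, with the smallest p for HET/WT, had 275 to 524 CPM (median 432) in HET/WT and 308 to 595 CPM (median 468) in WT/WT mice. The ranges overlapped almost wholly (log2 -0.10 ± 0.03, adjusted p = 0.661).

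Kcnj12 had the smallest p for WT/TG, with 9.97 to 17.8 CPM (median 12.98) against 5.46 to 16.8 CPM (median 11.8) in WT/WT mice (log2 0.17 ± 0.06, adjusted p = 1). Kcne2 had the smallest p for HET/TG, with 0 to 14.8 CPM (median 0.355) against 0 to 5.5 CPM (median 0.115) in WT/WT (log2 1.89 ± 0.65, adjusted p = 0.651). Choroid plexus markers summed to a median of 52.3 CPM (3.06 to 2565) in HET/TG and 19.6 (2.01 to 1199) in WT/WT mice, and with them in the model the difference of Kcne2 was 0.38 ± 0.26 (adjusted p = 0.971). Without the filter on low counts Kcne2 was called for HET/TG (log2 1.89).

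No difference of the HET/WT effect was called between light cycles (0 genes, 4 at an unadjusted p under 0.05) or between sexes (0 called, 1 at an unadjusted p under 0.05), against 0% of all genes in both tests. The smallest p values were those of Kcnj16 (0.29 ± 0.10, adjusted p = 0.514) and Kcnip3 (-0.16 ± 0.05, adjusted p = 0.758). Leaving out the library that goes against its label, or any 1 replicate number, gave 0 calls in each of these 5 tests.

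Other genes of potassium handling were read from 3 lists, chosen like the channel genes with earlier results of these data known. Of 20 tested partners of the channels, 14 had a daily curve (41.4% of all genes did), 4 were called between light cycles in calorimetry (19.6% of all genes), 15 between the sets (14 lower, against 62.2% of all genes called and 32.9% lower) and none between HET and WT (0.0425%). The light cycle count, 4 of 20, is near that of all genes. Dpp10, a membrane partner of Kcnd channels, was higher in 11:11 (0.098 ± 0.034, adjusted p = 0.0284), as were Snx27 (0.068) and Abcc9 (0.16), the sulfonylurea receptor paired with Kcnj8, while Lrrc55 was lower (-0.14). Of the 4 Hcn genes, which carry the inward current opened by hyperpolarization, 3 had a daily curve and 4 differed between the sets (3 lower), too few to set against the shares of all genes. Hcn4 was lower in 11:11 in calorimetry (-0.46 ± 0.09, adjusted p = 3.63e-05) and peaked at ZT2.69. Its light cycle difference differed between the sets (-0.55 ± 0.12, adjusted p = 0.00224). Of 11 sodium-potassium pump and cotransporter genes, 5 had a daily curve and 8 differed between the sets (7 lower), counts close to the 41.4% and 62.2% of all genes. In calorimetry 3 were higher in 11:11 and none lower. Among them were Slc12a2 (0.18 ± 0.04), a cotransporter that loads cells with chloride, and the pump subunit Atp1b2 (0.17 ± 0.04).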

How the data were processed

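RNA of left prefrontal cortex was sequenced after ribosomal RNA removal, with a directional library kit, per the labels' protocols. The values used are the raw counts per gene that the authors deposited in 2 tables, 92 libraries of the daily atlas and 126 collected at ZT6. Trim Galore, STAR, SAMtools, limma and the mouse build mm10 are named in the submitters' processing notes. No source used here names the counting tool, its annotation or its strand setting. Of 55487 gene identifiers, 55227 matched GENCODE vM21 and the other 260 were not considered as channel genes. The label of 1 sample of the ZT6 groups has no matching column, and that sample was not analysed here, so its group has 3 libraries where the written design had counted it. Some genes of the symbol rule and of the other lists are not reported here by name.

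Counts were filtered with filterByExpr, scaled by TMM and tested with edgeR 4.0.16 (quasi-likelihood test, R 4.3.3). At ZT6 18841 genes were kept and in the atlas 17193, and p-values were Benjamini-Hochberg adjusted over all of them, with a threshold of 0.05. All 126 libraries entered one fit at ZT6, with each group of set, sex, light cycle and genotype as a term, and comparisons averaged over the other factors. The atlas fit had terms for sex and for a cosinor with a period of 24 h. CPM used TMM library sizes, and FPKM divided these by exon length. Alternatives were DESeq2 1.42.0, no filter, a replicate block, time as a factor in the atlas and the length slope or marker sums as covariates. Others were fits of 1 sex and fits leaving out replicates or doubtful libraries. The functions were tested on simulated counts. The labels call the samples biological replicates. No 2 libraries held identical values.

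Named genes were, in each comparison, the called genes with at most the 5 largest rises and 5 largest falls; for the daily curve, the 10 largest folds; for the difference between sets, all called; between genotypes, the called genes or else the smallest p; and the gene with the highest FPKM of each subfamily. The members, lists and tests were chosen with earlier results of these data known, and the tests within 1 sex or set and their differences were added after the data had been seen.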

Additional observations from a re-analysis of the deposited data

Results flagged for a closer look

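The light cycle difference at ZT6 differed between the calorimetry and running wheel sets for 2 channel genes by the test of the difference itself (edgeR's quasi-likelihood test, adjusted over all genes). For Kcnk1 the difference of the log2 differences (calorimetry minus running wheel) was 0.16 and for Kcnd1 it was -0.25.

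Within the calorimetry set the light cycle difference differed between males and females for 8 genes by the same test. Among them, the difference (males minus females) was -0.35 for Kcnj6, -0.26 for Kcna1, 0.32 for Kcnj10, -0.27 for Kcnj9, -0.21 for Kcnt1, -0.28 for Kcnd3 and -0.40 for Kcng1. Kcnj6 was called under all 13 alternatives tried, and Kcng1 was called under 4 of them.

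The sex difference at ZT6 differed between the sets for 44 of the 74 genes, against 51.8% of all genes. The part that the length slope, lowest in calorimetry males, has in this was tested only as a covariate, under which 30 genes were called.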

How the results depend on the processing

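Without the filter on low counts, 13 genes were called between light cycles, 18 within calorimetry, 4 within running wheel mice, 10 for the difference between sets, 1 for HET/WT, 2 for HET/TG and 2 for HET/WT by light cycle. With the length slope as covariate the counts were 3 between light cycles, 6 within calorimetry, 2 in calorimetry females, 4 for the difference between sets, 28 between sets, 18 between sets in males and 9 between sexes at ZT6. With striatal markers as covariate 13 were called between atlas sexes and 15 for light cycle by sex in calorimetry, where DESeq2 called 17. Without the 2 libraries of smallest channel share 16 were called within calorimetry. For the daily curve, females alone gave 15 and males alone 29. The cause of these changes was not tested. Fits of 1 sex also held fewer mice, and the part of that was not tested.

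With 1 replicate number left out, the counts ranged from 3 to 6 between light cycles, 6 to 10 within calorimetry, 2 to 8 in its females, 6 to 11 in its males, 1 to 8 for light cycle by sex there and 1 to 1 for the difference between sets. They ranged from 52 to 54 between sets, 48 to 52 between sexes at ZT6, 30 to 43 for the daily curve and 42 to 45 between atlas sexes. Genotype counts stayed at 0. Of 939 values of named genes under alternatives, 815 kept direction and side of the threshold, 118 lost the call, 1 gained it and 5 reversed. Between sexes at ZT6 with the length slope, Kcne1l was -0.20, Kcnb2 0.16, Kcnh7 0.17 and Kcnj3 0.036. Between atlas sexes with striatal markers Kcnh4 was 0.052. None of these 5 reversed values was called.

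Replicate numbers were shared between groups. Deviations of same-numbered libraries from their group means had a median correlation of 0.0018 in the atlas (-0.334 to 0.35), with 131 of 666 pairs over 0.1. At ZT6 it was 0.0052 (-0.291 to 0.32), with 177 of 1922. For pairs of other numbers the medians were -0.0019 and -0.0015, and their pairs over 0.1 were not counted. The medians thus show no pairing by number in general. Whether some pairs deviated together was not tested. With the replicate number as a block 7 genes were called between light cycles, 11 within calorimetry, 2 for the difference between sets, 55 between sets, 54 between sexes at ZT6, 41 for the daily curve and 46 between atlas sexes. Under the block the daily calls of Kcne2 (adjusted p = 0.0574) and Kcne1l (0.0515) and that of Kcng1 for light cycle by sex in calorimetry (0.0505) were lost. Kcne2, at 0 counts in 73 libraries, gives no reliable fold.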
